A study of Homo sapiens with 2 samples.

Results

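The 4 mature microRNAs described here are both arms of the hairpins hsa-mir-504 and hsa-mir-455, taken by name from a table of 2656 mature microRNAs. They come from small RNA libraries of the MDA-MB-231 line, derived from a human breast cancer that lacks the usual hormone receptors and HER2. The cells were transduced with an shRNA against ELOVL5, a fatty acid elongase (shELOVL5), or with the control shRNA called shLuc, and each condition had 1 library. The shRNA sequences, the number of cell clones and the time after transduction are stated nowhere in the labels, and ELOVL5 mRNA cannot be read from microRNA counts. The hairpins were selected on the shELOVL5 over shLuc ratio of their counts in these very libraries, so their differences are a description and carry no test.

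A microRNA hairpin is cut from a longer transcript by Drosha and then by Dicer into a short duplex of a 5p and a 3p arm. One arm usually enters an Argonaute protein as the guide, and the other is mostly degraded. The guide pairs with messenger RNAs chiefly through its seed, bases 2 to 8. miR-504 has been studied in several kinds of tumour. miR-455 is known from cartilage, where the transcription factor SOX9 drives it, and in mouse as a promoter of brown fat formation.

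The mature sequences below are from RefSeq (GRCh38.p14), which matched all 4 names, and the seed is in capitals. They are shown because microRNAs with a common seed have largely common targets.
hsa-miR-504-5p: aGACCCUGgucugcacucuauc
hsa-miR-504-3p: gGGAGUGCagggcaggguuuc
hsa-miR-455-5p: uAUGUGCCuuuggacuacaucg
hsa-miR-455-3p: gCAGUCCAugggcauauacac
No seed was shared among the 4. Of the 2367 mature names of the table that matched RefSeq, only hsa-miR-4725-5p had the seed of a member, that of hsa-miR-504-5p. It had 1 count in shELOVL5 and 0 in shLuc.
hsa-miR-4725-5p: aGACCCUGcagccuucccacc
The identity to hsa-miR-504-5p covers the leading 8 bases and 12 positions differ when the sequences are aligned without gaps. The longest run of bases that hsa-miR-504-5p shared with any of the other 2366 matched sequences was 9 of its 22 bases, and for hsa-miR-455-3p it was 8 of 21. For hsa-miR-504-3p and hsa-miR-455-5p the longest run was 10 bases. Each member was listed under 1 precursor.

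The hairpins are shown with both arms in capitals, since the arms are the units that were counted. MIR504 lies on the minus strand at chrX:138667711-138667793 and MIR455 on the plus strand at chr9:114209434-114209529 (GRCh38).
MIR504: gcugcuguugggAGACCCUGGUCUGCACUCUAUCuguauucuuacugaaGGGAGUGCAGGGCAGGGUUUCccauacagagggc
MIR455: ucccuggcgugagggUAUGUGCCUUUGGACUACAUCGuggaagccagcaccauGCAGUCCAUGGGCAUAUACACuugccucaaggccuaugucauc
Both genes lie within a protein-coding gene on the same strand. In GENCODE 29, MIR504 was spanned by 6 of the 8 transcripts of FGF13, which encodes a fibroblast growth factor homologue that stays inside the cell. MIR455 was spanned by 3 of the 8 transcripts of COL27A1, a fibrillar collagen gene. The hairpins overlapped an exon in 0 of these transcripts and are therefore intronic. Folded with RNAfold, MIR504 had a minimum free energy of -53 kcal/mol over 83 bases, with 18 base pairs between its arms. MIR455 had -42.1 kcal/mol over 96 bases, with 16 pairs. Per base, 9.87% of 1560 human hairpins were more stable than MIR504 and 54.0% were more stable than MIR455.

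The shELOVL5 library held 6811811 microRNA counts and the shLuc library 7109272. Levels are counts per 1000000 counts (CPM) scaled with edgeR's TMM factors, ratios are shELOVL5 over shLuc, and the bracketed 95% intervals cover counting error only. With 1 library per condition there was no replicate check and no p-value. A microRNA was called expressed with a mean of at least 50 CPM and at least 100 counts over both libraries, which held for 191 in all and for 3 of the 4 members. The cell line's labels were compared with a marker list: hsa-miR-21-5p, hsa-miR-100-5p, hsa-miR-221-3p and hsa-miR-222-3p, abundant in mesenchymal-like breast lines, together had 3006393 counts in shELOVL5 and 3153729 in shLuc. The epithelial list of hsa-miR-200c-3p, hsa-miR-141-3p, hsa-miR-205-5p and hsa-miR-203a-3p had 465 and 472, of which hsa-miR-200c-3p gave 450 and 467. Other epithelial microRNAs outside that list, named after their values were seen, were higher in shELOVL5, with 1626 and 1265 counts for hsa-miR-200b-3p (ratio 1.31, 1.22 to 1.41) and 471 and 281 for hsa-miR-200a-3p.

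hsa-miR-504-5p, the guide arm of its hairpin, was present in the shELOVL5 library and close to absent from shLuc. It had 917 counts, or 133 CPM (126 to 142), in shELOVL5 and 7 counts, or 0.997 CPM (0.401 to 2.05), in shLuc. The ratio was 133 (64.5 to 333), or 7.06 on the log2 scale. The width of that interval comes from the 7 shLuc counts, and adding 5 CPM to both values brought the log2 ratio to 4.52. By count it held rank 143 in shELOVL5 and rank 605 in shLuc. The labels mention no molecular identifiers, so PCR duplicates may be part of these counts.

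**Figure D1:**
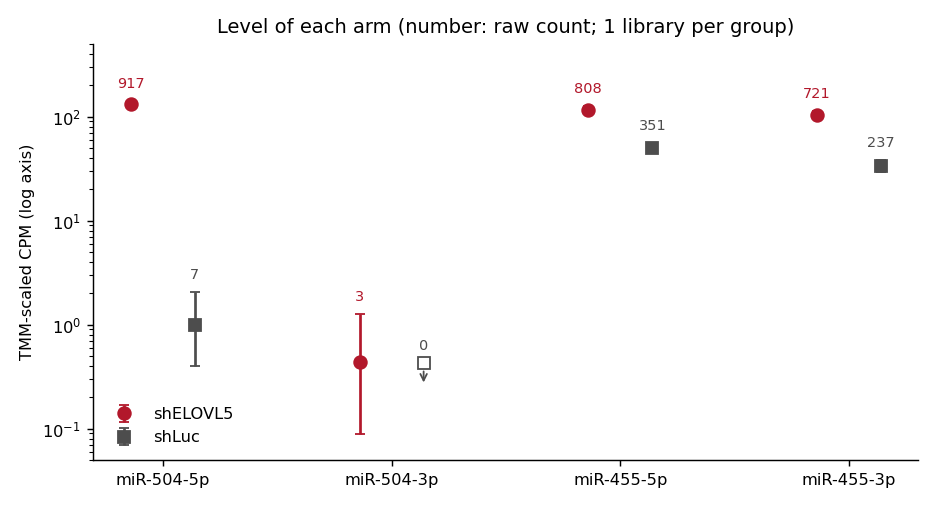
TMM-scaled CPM (log axis) of each arm in the shELOVL5 library (red circles, left) and the shLuc library (grey squares, right), with exact Poisson 95% intervals and the raw count above each point. The open square with an arrow marks 0 counts, drawn at the level of 3 counts. hsa-miR-504-5p had 917 and 7 counts, while both miR-455 arms were detected in both libraries.

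This pattern was set against microRNAs of like abundance. Because hsa-miR-504-5p was chosen for its shELOVL5 over shLuc ratio, the contrasts and shares below are a description and lend no support. Of the non-members, 61 had a shELOVL5 count within 2-fold of 917, and their shLuc counts ran from 281 to 2008 with a median of 872, against 7 for hsa-miR-504-5p. In the other direction, 273 non-members had a shLuc count within 2-fold of 7. Their shELOVL5 counts had a median of 6 and a 95th percentile of 18.4, and the highest was 84, for hsa-miR-142-5p. Of 360 microRNAs with at least 50 counts in either library, 2 (0.556%) had that many in shELOVL5 and at most 10 in shLuc. They were hsa-miR-504-5p and hsa-miR-142-5p. The reverse pattern was found for 0 of 360.

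hsa-miR-504-3p, the passenger arm, was at the limit of detection. It had 3 counts in shELOVL5 and 0 in shLuc. With a limit of 3 counts for a count of 0, shLuc allows up to 0.427 scaled CPM, and the 3 counts of shELOVL5 correspond to 0.435, so no fold is given. The exact Poisson upper bound of the 0 is 0.525 scaled CPM. The 3p arm made up 0.326% (exact binomial interval 0.0673 to 0.950%) of the 920 hairpin reads in shELOVL5. In shLuc it was 0 of 7, which allows a share of up to 42.9% by the limit of 3 counts and up to 41.0% by the exact binomial interval. Whether the arm balance of this hairpin differed between the libraries was thus not detectable at this depth. In counts, nearly all of the difference at this locus was in hsa-miR-504-5p. The 3p arm was too near the limit of detection to show a difference of its own.

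hsa-miR-455-5p and hsa-miR-455-3p were detected in both libraries and both were higher in shELOVL5. hsa-miR-455-5p had 808 counts (117 CPM, 109 to 126) in shELOVL5 and 351 counts (50.0 CPM, 44.9 to 55.5) in shLuc, giving a ratio of 2.34 (2.06 to 2.66). For hsa-miR-455-3p there were 721 counts (105 CPM, 97.0 to 112) in shELOVL5 and 237 counts (33.8 CPM, 29.6 to 38.3) in shLuc, giving a ratio of 3.10 (2.67 to 3.60). Over both arms the hairpin had 1529 counts in shELOVL5 and 588 in shLuc, a ratio of 2.65 (2.41 to 2.92). By count hsa-miR-455-5p held rank 150 in shELOVL5 and rank 189 in shLuc, and hsa-miR-455-3p ranks 156 and 220. Unlike that of hsa-miR-504-5p, the shLuc count of hsa-miR-455-5p, 351, was inside the range of the 67 non-members with a shELOVL5 count within 2-fold of its own, 228 to 2008 with a median of 720. For hsa-miR-455-3p the shLuc count of 237 was near the low end of the 228 to 2008 counts of 69 such non-members, whose median was 690. Matched on the shLuc count instead, both arms were high. The 721 counts of hsa-miR-455-3p in shELOVL5 lay above all 97 non-members with a shLuc count within 2-fold of its own, which had 77 to 570 with a median of 230. The 808 counts of hsa-miR-455-5p lay above the 95th percentile of 85 such non-members, 698, and below their highest, 827. Because both arms were chosen for their ratio, these matched contrasts are a description and lend no support.

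A ratio of 2 or more was found for 3 of the 191 expressed microRNAs (1.57%), and a ratio of 0.5 or less for 0. These 3 are the expressed members, and since that ratio chose them nothing further is read from the share. Among all 348 microRNAs with 100 or more counts over both libraries the share was 1.72%, or 6. hsa-miR-455-5p, at 2.34, lay just inside the 2-fold limit. Just outside it lay hsa-miR-146a-5p, known as a brake on NF-kappaB signalling, at 1.84 (1.80 to 1.88) and the epithelial hsa-miR-200a-3p at 1.71 (1.47 to 1.99). Further below were hsa-miR-146b-5p at 1.67, the hypoxia-induced hsa-miR-210-3p at 1.47 and hsa-miR-218-5p at 1.46. At the opposite end were hsa-miR-151a-3p at 0.640, hsa-miR-99b-5p at 0.678 and hsa-miR-181a-2-3p at 0.688. Among the 188 expressed non-members the ratio had a median of 0.977, with 5th and 95th percentiles of 0.770 and 1.33.

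**Figure D2:**
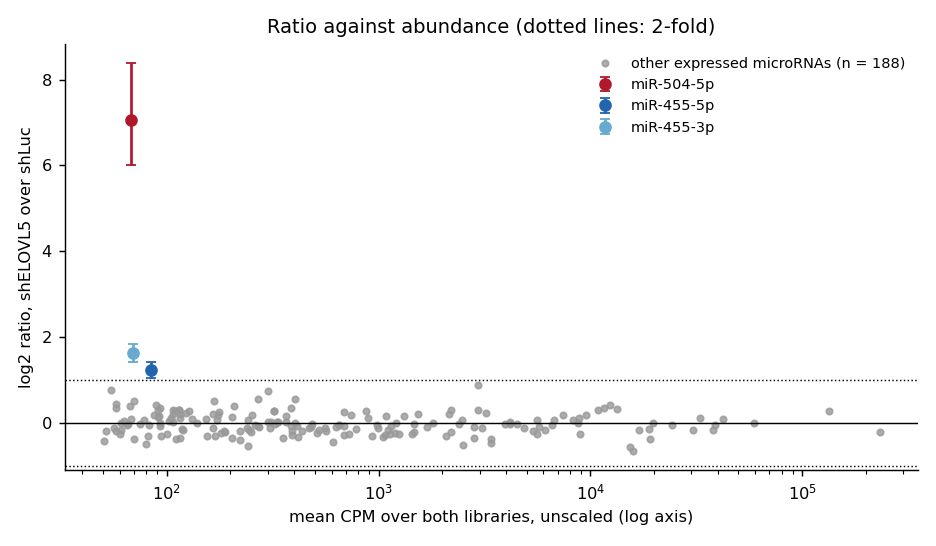
Log2 ratio of shELOVL5 over shLuc against mean unscaled CPM (log axis) for the 191 expressed microRNAs. Grey points are the 188 non-members, coloured points the 3 expressed arms with 95% counting intervals, and dotted lines mark 2-fold. hsa-miR-504-5p stands at 7.06, hsa-miR-455-3p at 1.63 and hsa-miR-455-5p at 1.23, with all 188 non-members at or below 0.88.

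The 3 expressed arms were among the less abundant expressed microRNAs. In shLuc all 3 lay below 50 unscaled CPM, at 0.985 for hsa-miR-504-5p, 49.4 for hsa-miR-455-5p and 33.3 for hsa-miR-455-3p. They passed the mean limit through shELOVL5, with 135, 119 and 106. The ratios of the 20 expressed non-members nearest in mean CPM ran from 0.709 to 1.71 around hsa-miR-504-5p, and from 0.709 to 1.43 around each miR-455 arm. Since these neighbours were matched on that same mean, the contrast is a description and lends no support. A counting interval wholly above 1 was common in these libraries, with 61 of 191 expressed microRNAs (31.9%), while 80 (41.9%) lay wholly below 1. An interval that leaves out 1 therefore does not set the members apart. All 4 members together made up 360 per 1000000 counts in shELOVL5 and 83.7 per 1000000 in shLuc, so their difference had little weight in the library totals.

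The arms of a hairpin come from the same precursor, and their balance does not depend on how the libraries are scaled. In miR-455 both arms gave a large share of the reads. The 3p arm gave 47.2% (44.6 to 49.7%) of the hairpin reads in shELOVL5 and 40.3% (36.3 to 44.4%) in shLuc. The ratio of 3p to 5p counts was 0.892 in shELOVL5 and 0.675 in shLuc, a change of 1.32-fold with a conditional exact interval of 1.08 to 1.61. Over all hairpins compared, that change was not unusual in size. Of 80 hairpins with a single locus and at least 100 counts on each arm over both libraries, 19 had a larger change in either direction, and the median change was 0.22 on the log2 scale, against 0.40 for miR-455. In 11 of the 80, miR-455 among them, the 3p arm took between 30 and 70% of the counts in both libraries. Of these 11, hsa-mir-1306 (log2 change -0.72) and hsa-mir-29c (0.53) changed more in size than miR-455, and the rest changed less. In 51 of the 80 both arms lay on the same side of a ratio of 1. Both arms were at least 2-fold higher in 1 of the 80, miR-455, by the choice of members, and at least 2-fold lower in 0.

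**Figure D3:**
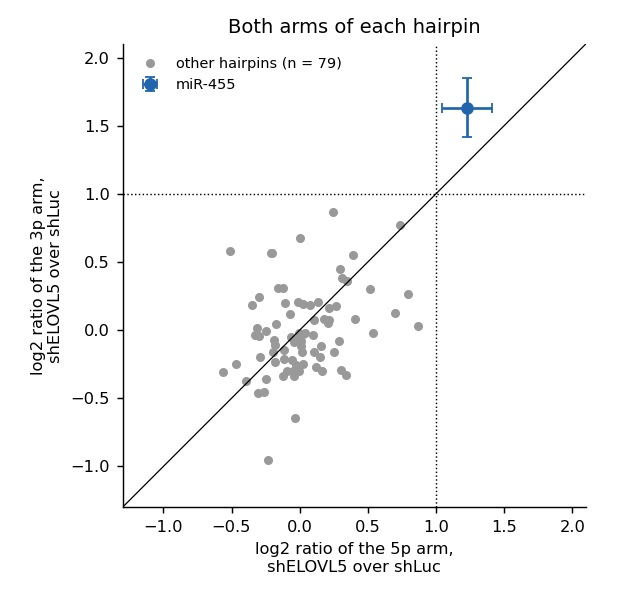
Log2 ratio (shELOVL5 over shLuc) of the 3p arm against that of the 5p arm for 80 hairpins with at least 100 counts on each arm. The blue point with 95% counting intervals is miR-455, at 1.23 for the 5p arm and 1.63 for the 3p arm, and the diagonal marks equal ratios. The 79 other hairpins (grey) stay within 2-fold for both arms.

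Argonaute proteins are known to favour a U or an A as the leading base of a guide. hsa-miR-455-5p begins with U and hsa-miR-504-5p with A, as did 49.4% and 25.9% of the 174 expressed microRNAs with a RefSeq sequence. Both 3p arms begin with G, which held for 7 of the 174 (4.02%). hsa-miR-455-3p is thus 1 of few expressed microRNAs with that base, while hsa-miR-504-3p fell below the expression limit. The GC content was 54.5% for hsa-miR-504-5p, 66.7% for hsa-miR-504-3p, 45.5% for hsa-miR-455-5p and 52.4% for hsa-miR-455-3p. The median over the 174 was 50%, with a range of 27.3 to 75%.

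The nearest microRNA genes were examined for differences of like size. Within 2 Mb of MIR504, RefSeq placed 1 other microRNA gene, MIR505, 1.26 Mb away. hsa-miR-505-3p had 832 counts in shELOVL5 and 775 in shLuc, a ratio of 1.09 (0.990 to 1.21). hsa-miR-505-5p had 67 and 42, a ratio of 1.62 (1.09 to 2.45) and below the expression limit. On the other side the nearest gene was MIR934, 2.12 Mb away, with 0 counts in both libraries. MIR455 had 0 microRNA genes within 2 Mb. Its nearest on either side were MIR4668, 2.28 Mb away, with 7 and 7 counts for hsa-miR-4668-5p, and MIR147A, 6.04 Mb away, with 0 and 1.

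Only microRNAs whose every precursor was located on the chromosome were counted, and RefSeq located 1835 of 1917 precursors, so some may be missing. On that basis 19 other microRNAs of chromosome X were expressed. Of these, 0 were at least 2-fold higher or lower, 3 had intervals above 1 and 11 below, and the median log2 ratio was -0.055. Over all 191 expressed microRNAs, 61 (31.9%) had intervals above 1 and 80 (41.9%) below. None of the 188 expressed non-members reached 2-fold. The ratios of the 19 ran from 0.812 for hsa-miR-221-5p to 1.35 for hsa-miR-106a-5p. Across chromosome 9, 7 others located in this way were expressed, of which 0 reached 2-fold, 1 had an interval above 1 and 5 below. Their median log2 ratio was -0.37, against -0.033 over all 191 expressed microRNAs. The highest was the endothelial hsa-miR-126-3p at 1.20 and the lowest hsa-miR-181a-2-3p at 0.688. hsa-miR-23b-3p (0.727), hsa-miR-27b-3p (0.772) and hsa-miR-27b-5p (0.761), which derive from neighbouring hairpins, were among the 5.

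**Figure D4:**
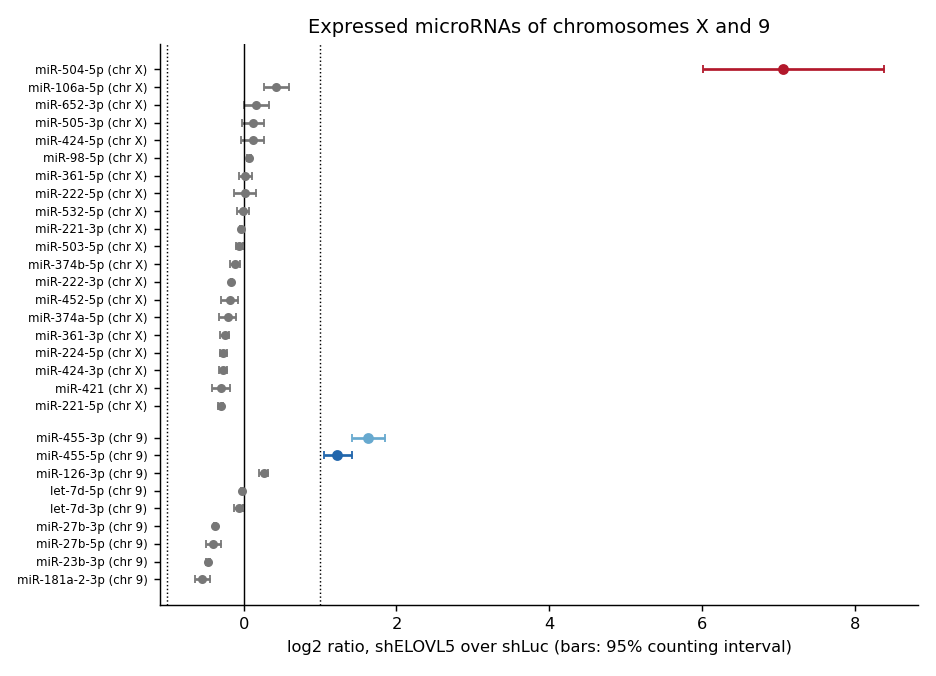
Log2 ratio of shELOVL5 over shLuc, with 95% counting intervals, for the expressed microRNAs of chromosome X (top, with hsa-miR-504-5p in red) and chromosome 9 (bottom, with the miR-455 arms in blue). Only microRNAs whose every precursor was located on the chromosome are shown. Dotted lines mark 2-fold. The 19 other microRNAs of chromosome X lie between ratios of 0.812 and 1.35, and the 7 others of chromosome 9 between 0.688 and 1.20.

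Lists tied to the known roles of miR-455 were examined without the members themselves. The cartilage list had 4 of 7 other members expressed, with 1 interval above 1 and 1 below. The interval above was that of hsa-miR-146a-5p, at 1.84, and the interval below that of hsa-miR-27b-3p, at 0.772. miR-140, the classical cartilage microRNA, was near level, with hsa-miR-140-5p at 1.02 (0.957 to 1.08) and hsa-miR-140-3p at 0.981 (0.954 to 1.01). The list of brown and beige fat microRNAs had 9 of 16 others expressed, 5 with intervals above 1 and 3 below, and a median log2 ratio of 0.16. The 3 intervals below 1 went with ratios of 0.938 for hsa-miR-93-5p, 0.786 for hsa-miR-328-3p and 0.772 for hsa-miR-27b-3p. Among those above 1, hsa-miR-365a-3p, known to promote brown fat in mouse, was at 1.23 (1.11 to 1.36) and hsa-miR-378a-3p at 1.15 (1.13 to 1.18). hsa-miR-193b-3p, encoded next to miR-365a, was just below the expression limit at 1.20 (1.02 to 1.40). The list of microRNAs that act on collagen or TGF-beta signalling had 7 of 13 others expressed, 4 above and 1 below, with a median of 0.12. The collagen repressors hsa-miR-29a-3p and hsa-miR-29b-3p were at 1.28 (1.27 to 1.30) and 1.43 (1.32 to 1.56). The 1 with an interval below 1 was hsa-miR-182-5p at 0.771 (0.757 to 0.785). In these 3 lists 0 of the expressed other members reached 2-fold, and none of the 188 expressed non-members did. For scale, 61 (31.9%) of all 191 expressed microRNAs had intervals above 1 and 80 (41.9%) below. The median log2 ratio of the 191 was -0.033.

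Markers of other cell types were compared between the libraries. Blood markers had 1 of 7 expressed, hsa-miR-486-5p, and a sum of 2282 counts in shELOVL5 and 2798 in shLuc. Of that sum hsa-miR-486-5p gave 2146 and 2788, with a ratio of 0.784 (0.740 to 0.829). The haematopoietic hsa-miR-142-5p had 84 counts in shELOVL5 and 6 in shLuc, with a ratio of 14.3 (6.28 to 39.9). Its partner arm hsa-miR-142-3p had 45 and 2, with a ratio of 22.9 (5.98 to 195). Both miR-142 arms were thus higher in the library with more hsa-miR-504-5p, while hsa-miR-486-5p was lower there. The remaining blood markers were at or near 0. hsa-miR-223-3p and hsa-miR-144-3p had 0 counts in both libraries, hsa-miR-150-5p had 1 and 0, and hsa-miR-451a had 6 and 2. The stromal and endothelial list summed to 5286 in shELOVL5 and 4479 in shLuc, of which the endothelial hsa-miR-126-3p gave 5175 and 4394. The stromal hsa-miR-143-3p had 11 and 12 counts, hsa-miR-199a-3p 32 and 32, hsa-miR-145-5p 3 and 2, and hsa-miR-214-3p 2 and 2. The list of liver, muscle, neuronal and endocrine markers summed to 29856 and 30042, of which hsa-miR-7-5p gave 28993 and 29062. Its muscle microRNAs, below the expression limit, went opposite ways, with 14 counts in shELOVL5 and 80 in shLuc for hsa-miR-1-3p (ratio 0.178, 0.0932 to 0.317) and 155 and 69 for hsa-miR-206 (ratio 2.29, 1.71 to 3.08). Of its neuronal markers, hsa-miR-124-3p had 0 in both, while hsa-miR-9-5p was expressed, with 634 and 771 counts (ratio 0.837, 0.752 to 0.931). The part of other cells in the values of hsa-miR-504-5p was not tested.

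Seed matches were looked up in the 3′UTR of ELOVL5, the gene targeted by the shRNA. The motif was the reverse complement of bases 2 to 8, read on the transcript strand alone, in the GENCODE 29 transcript with the longest coding sequence. CAGGGTC, the motif of hsa-miR-504-5p, occurred 1 time, in capitals below.
ELOVL5 site at chr6:53268174-53268196, minus strand: ggggaactggttgcCAGGGTCta
The motif occurred in 13.7% of 2221 3′UTRs within 20% of the length of that of ELOVL5 (1729 bases). The ELOVL5 site is not followed by an A. The motifs of the other arms, GCACTCC for hsa-miR-504-3p, GGCACAT for hsa-miR-455-5p and TGGACTG for hsa-miR-455-3p, occurred 0 times. A match is a string of letters, and messenger RNA was not measured in these libraries.

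**Figure D5:**
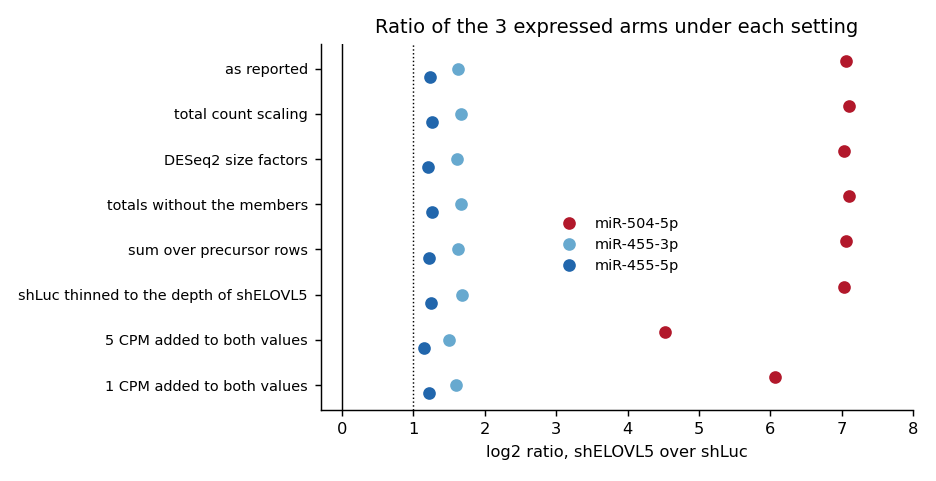
Log2 ratio of shELOVL5 over shLuc for hsa-miR-504-5p (red), hsa-miR-455-3p (light blue) and hsa-miR-455-5p (dark blue) as reported and under 7 other settings. The solid line marks 0 and the dotted line 2-fold. Both miR-455 arms stay between 1.15 and 1.67, and hsa-miR-504-5p is at 4.52 with 5 CPM added to both values.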

How the data were processed

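The deposited table held counts, 1 line for each pair of precursor and mature microRNA, for 1 shELOVL5 and 1 shLuc library. The values are whole numbers and were taken to be unnormalized. Per the submitters' processing notes the tools included cutadapt 2.10, FastQC 0.11.9 and Bowtie 1.1.1. Which program counted the reads, with which annotation release and with what handling of multiple matches, was not given in the sources used here. Frozen tumor material is named in the labels' extraction text, while the other labels describe a cell line.

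Of 2656 mature microRNAs, 166 had several precursor lines, and the highest per library was used. TMM factors came from edgeR 4.0.16 in R 4.3.3. Intervals of ratios were exact Clopper-Pearson intervals of a library's share of both counts (scipy 1.17.1), and those of CPM were exact Poisson. They cover counting error only. Hairpins were folded with RNAfold 2.7.2. RefSeq located 1835 of 1917 precursors. The counts table holds no coordinates.

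Besides the members, the genes named were the 5 highest and 3 lowest expressed non-members, microRNAs with a shared seed, neighbours within 2 Mb, microRNAs with at least 50 counts in 1 library and at most 10 in the other, and listed microRNAs. The nearest neighbours beyond 2 Mb, the 3′UTR look-up and the 30 to 70% range were added after values were seen. Some listed results are not reported here. Members and lists were chosen with earlier results of these data known. In simulated counts for shELOVL5 against shLuc over 425 microRNAs, 99 expressed microRNAs changed 3-fold were recovered at 100%, 0 of 101 unchanged ones were called, and 93.9% of intervals held the true ratio. The simulation had counting error only and did not test the TMM step.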

Additional observations from a re-analysis of the deposited data

How the results depend on the processing

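No paired analysis was possible because there is a lone library per condition, and none could be left out. Of 47 values recomputed under other settings, 40 stayed within the counting interval (ratios and arm shares) or within 1.5 times (counts of microRNAs). Among the ratios, 0 changed direction. Not all of these values could move, since each member has 1 precursor line and summing lines left its arm shares unchanged. With 5 CPM added, hsa-miR-504-5p had a log2 ratio of 4.52, against 7.06. The number at least 2-fold higher was 5 of 313 where the mean had to reach 10 CPM, 0 of 68 where it had to reach 1000 CPM, 120 of 1024 with no filter beyond 1 count per library, and 6 at a 1.5-fold rule, against 3. The number at least 2-fold lower was 77 of 1024 with no such filter and 1 at a 1.5-fold rule, against 0. All log2 ratios shift by 0.036 under total counts and by -0.026 under DESeq2 1.42.0 size factors, which were 1 and 1 and so amount to unscaled counts. Depth limits hsa-miR-504-3p and the shLuc value of hsa-miR-504-5p, and the lack of replicates limits every comparison.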

Other observations

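Below the expression limit, other microRNAs differed by about as much as miR-455. Of the 348 microRNAs with 100 or more counts in all, 6 (1.72%) had a ratio of 2 or more and 0 had a ratio of 0.5 or less. The 3 that are not members are named here after their values were seen. hsa-miR-3613-5p had 82 counts in shELOVL5 and 33 in shLuc, a ratio of 2.53 (1.67 to 3.91). hsa-miR-206, a muscle microRNA, had 155 and 69, with a ratio of 2.29 (1.71 to 3.08), while the muscle microRNA hsa-miR-1-3p, with fewer than 100 counts in all, had 14 and 80, with a ratio of 0.178 (0.0932 to 0.317). hsa-miR-147b-3p had 143 and 64, with a ratio of 2.27 (1.68 to 3.10). The intervals of all 3 overlap those of both miR-455 arms. At the opposite end, hsa-miR-1306-3p had 77 and 152 counts, with a ratio of 0.516 (0.387 to 0.683).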
